A study of Homo sapiens with 60 samples.

Results

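The 9 genes described here are GCLC, GCLM, GSR, SLC7A11, TXNRD1, SRXN1, NQO1, GPX2 and TXN, a set of antioxidant genes that NRF2 is known to control. They were chosen by symbol, each matched 1 row, and they are 9 of the 60675 genes in the deposited table. Cells of HT29, a line from a human colorectal adenocarcinoma, were treated for 24 h with 1 of 8 herbal extracts at a high, a medium or a low dose or with DMSO as vehicle, and RNA was sequenced from 60 libraries. Water extracts of the formulas Sayeok-tang (n = 3 a dose) and Bojungikgi-tang (n = 2 a dose) and ethanol extracts of Scutellariae Radix, Pinelliae Tuber, dried ginger (Zingiberis Rhizoma) and fresh ginger (Zingiberis Rhizoma Recens), with n = 3 a dose each, were given at 500, 100 and 20 µg/mL. An ethanol extract of Zizyphi Fructus was given at the same doses and one of Coptidis Rhizoma at 320, 64 and 12.8 µg/mL, with 1 library a dose. The vehicle group had 3 libraries. Whether replicates came from separate cultures is not stated, so the spread behind each p-value is that between libraries and may be technical.

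NRF2, encoded by NFE2L2, is a transcription factor that KEAP1 holds in the cytoplasm and passes on for degradation. Electrophiles and oxidants modify cysteines of KEAP1, NRF2 then accumulates, pairs with small MAF proteins and binds antioxidant response elements. Among its textbook targets are the genes that import cystine and build glutathione, those that keep glutathione and thioredoxin reduced, and NQO1. In the gut, GPX2 is the glutathione peroxidase of the epithelium.

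The promoters of the genes are shown first because the core of the antioxidant response element is a short, searchable motif. RefSeq windows on GRCh38.p14, from 250 bases before to 50 bases after a gene's start, were read for GCLC, GCLM, TXNRD1 (2 starts), SRXN1, NQO1, GPX2 and TXN. The windows of GSR and SLC7A11 were not analysed here. The motif searched was TGACNNNGC on both strands. It lay in 4 of the 8 windows, against 13.3% of all 35116 promoter windows. With the forward strand alone it lay in 1 of the 8 windows, against 6.9% of all. No match shown overlapped the AP-1 motif TGANTCA. A further match in the first TXNRD1 window, which reaches into the transcript, is not shown. The stretches around a match are given 5′ to 3′ along the gene's strand, with the match in capitals. Starts are those of RefSeq. In GENCODE 29, from which the gene positions below were taken, the GPX2 match and that of the second TXNRD1 start lie within an exon of their gene. The last base of the GCLM match is the first base of GCLM there.
GCLM, chr1:93909456-93909494, minus strand, match starting 34 bases before the start: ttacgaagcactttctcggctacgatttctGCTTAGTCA
TXNRD1, first start, chr12:104215650-104215718, plus strand, match 99 bases before the start: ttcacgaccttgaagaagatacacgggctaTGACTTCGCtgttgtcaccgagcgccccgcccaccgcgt
TXNRD1, second start, chr12:104286920-104286948, plus strand, match 102 bases before the start: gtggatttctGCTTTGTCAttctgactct
GPX2, chr14:64942849-64942877, minus strand, match 122 bases before the start: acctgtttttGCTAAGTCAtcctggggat
A match is a description of these letters in these windows. Of these genes, GCLM and TXNRD1 rose with several extracts, and GPX2 passed the test in 0 of the 18 contrasts with vehicle. The windows of GCLC, SRXN1, NQO1 and TXN held no match, and sequence beyond the windows was not searched. The windows of GCLC (chr6:53545052-53545351) and NQO1 (chr16:69726511-69726810) lay wholly within the GENCODE 29 spans of their genes. Of the 4 genes without a match, GCLC, SRXN1 and NQO1 rose with high-dose Scutellariae Radix and dried ginger, and TXN passed in 0 of the 18. A link between match and response was not tested.

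Total counts were 18016457 to 35819900 a library, and the 9 genes had at least 891 counts in every library. Of 8 colon epithelial markers, 7 were above 1 CPM (a count scaled by the total of its library) in all libraries, CDX1 lying at 0.275 to 2.16 CPM. Of 8 markers of other cell types, 5 were below 1 CPM in all. LYZ was at 1057 to 2302 CPM, COL1A1 at 0.938 to 2.23 and PECAM1 at 0.471 to 2.87. In 3 of the 54 libraries of groups with n above 1, the mitochondrial or ribosomal protein share stood over 10 median absolute deviations from the median. By ribosomal protein share these were replicate 3 of low-dose Scutellariae Radix (9.35%) and replicate 1 of vehicle (7.20%), and by mitochondrial share it was replicate 2 of high-dose Pinelliae Tuber (14.3%). Counts of the 9 genes, and of the lists the text turns on, are also given without these 3 where that moved them. The part of these shares in the results was not tested.

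Vehicle levels per kb of exon, the scale on which genes can be compared, were highest for GPX2 (454 CPM per kb) and TXN (410.5), followed by NQO1 (161) and TXNRD1 (52.0). SRXN1 (26.5), GSR (19.1), SLC7A11 (14.9), GCLM (11.9) and GCLC (8.79) were lower. Over all 60 libraries SLC7A11 ran from 90.2 to 1035 CPM and GSR from 57.2 to 99.8 CPM. Coptidis Rhizoma at the high dose held the highest value of 6 of the 9 genes. Pinelliae Tuber high-dose replicate 2 held the lowest value of 7 of the 9.

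**Figure D1:**
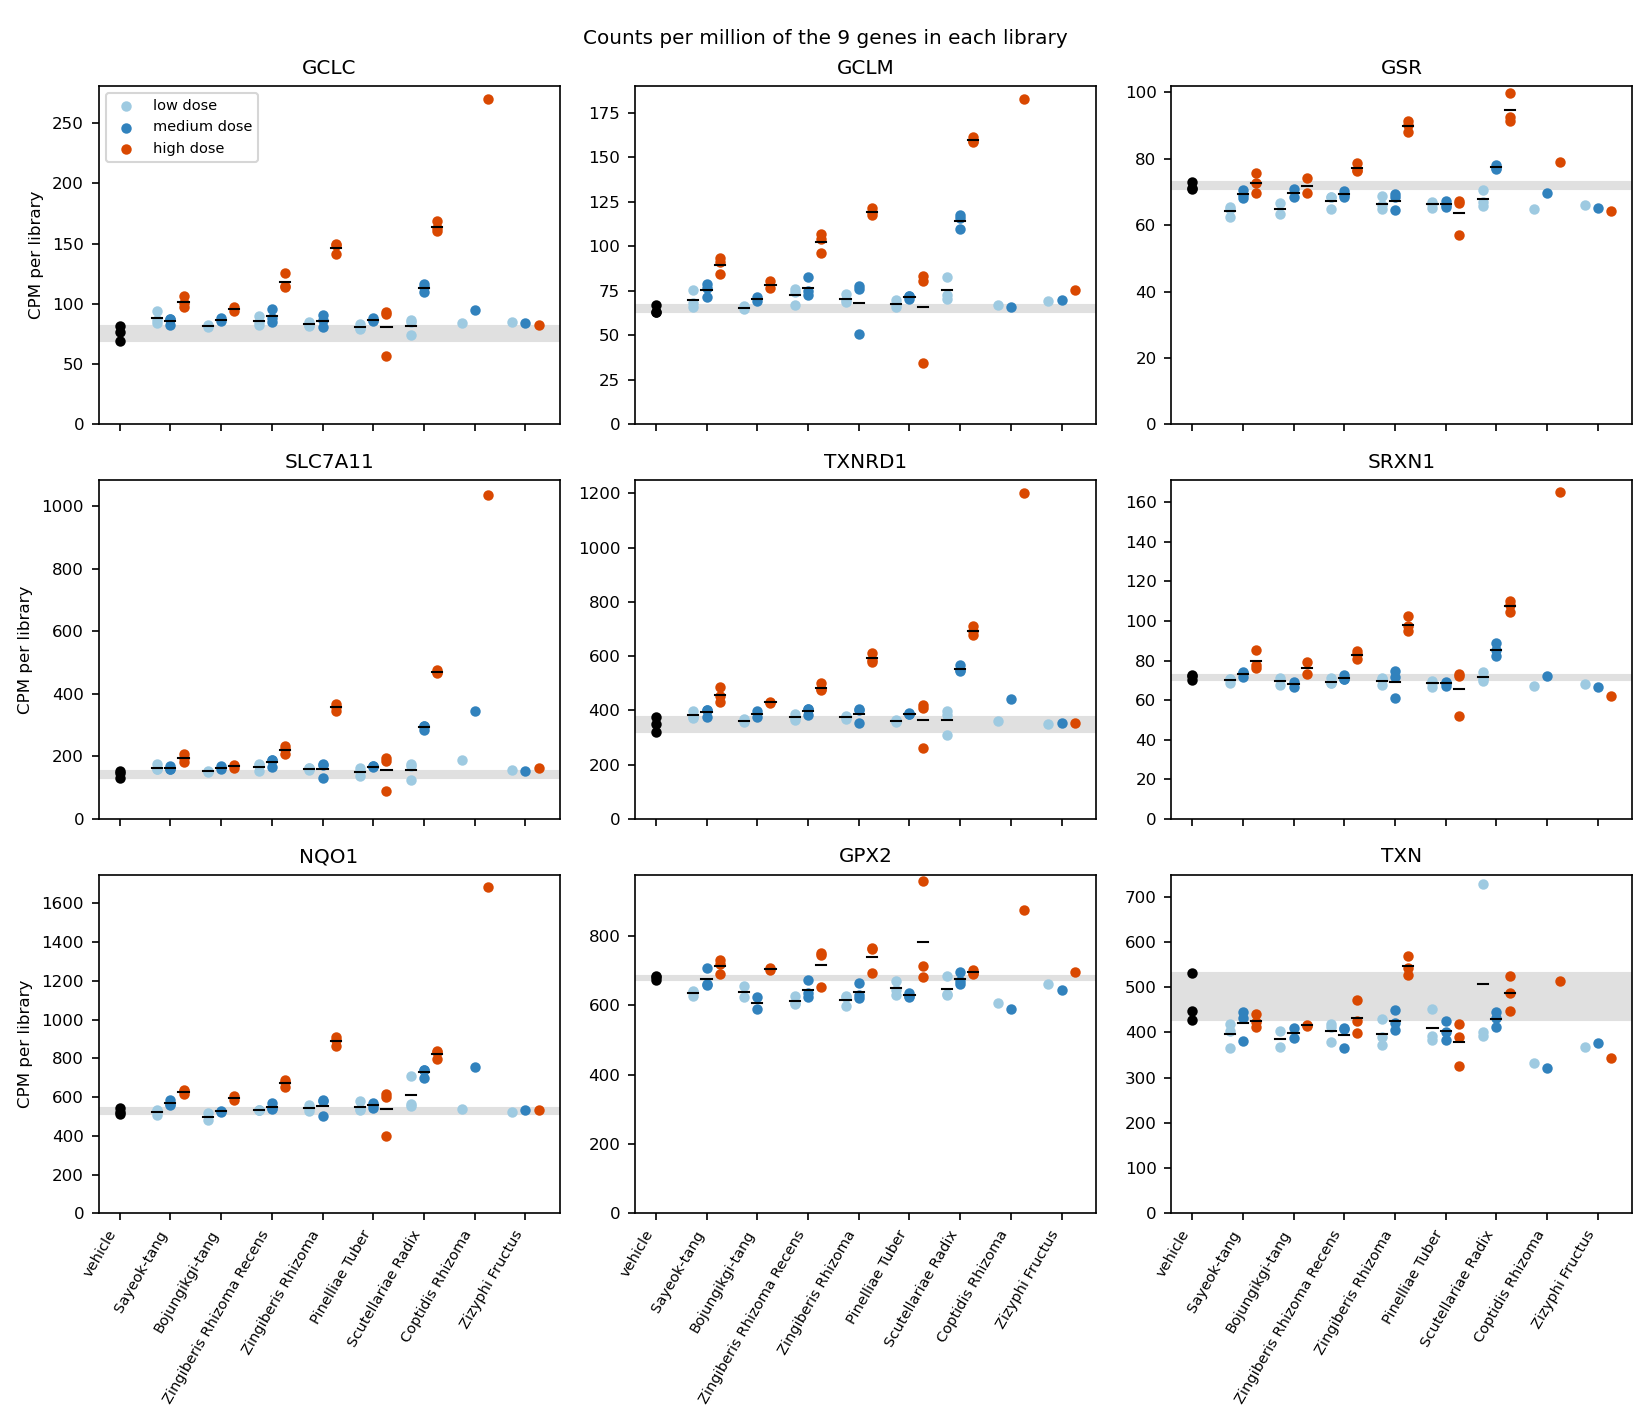
Level in CPM (linear axis from 0) of each of the 9 genes in every library, by extract and dose, with vehicle in black, a grey band over the vehicle range and a short line at the mean of groups with more than 1 library. SLC7A11 reached 467 to 476 CPM with Scutellariae Radix at the high dose and 1035 CPM in the single Coptidis Rhizoma high-dose library, against 129.9 to 153 CPM in vehicle.

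SLC7A11 is the cystine carrier of system xc-, which brings in the building block that limits glutathione synthesis. It was at 129.9, 147 and 153 CPM in the 3 vehicle libraries (GRCh38 chr4:138164097-138242349, minus strand). It was at 470.5, 476 and 467 CPM with high-dose Scutellariae Radix and at 359, 368 and 345 CPM with high-dose dried ginger. No library of these groups overlapped vehicle. The rise against vehicle was 1.73 ± 0.12 (log2 fold change ± SE, adjusted p = 6.68e-15 by edgeR's quasi-likelihood test) for Scutellariae Radix and 1.29 ± 0.12 (adjusted p = 6.93e-11) for dried ginger. Fresh ginger at the high dose gave 206, 224 and 233 CPM, also clear of vehicle, and a smaller rise of 0.59 ± 0.12 (adjusted p = 0.00182). Among the 19 groups with more than 1 library, the 5 highest means of SLC7A11 were those of Scutellariae Radix high (471 ± 4.3 CPM, SD), dried ginger high (357 ± 11.4), Scutellariae Radix medium (292 ± 7.4), fresh ginger high (221 ± 13.5) and Sayeok-tang high (195 ± 12.7). The libraries of the first 3 of these groups did not overlap each other. Those of fresh ginger high and Sayeok-tang high overlapped, with 206 CPM as the lowest of the former and 208 CPM as the highest of the latter.

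GCLC and GCLM encode the catalytic and the modifier subunit of glutamate-cysteine ligase, the rate-limiting enzyme of glutathione synthesis. GCLC (chr6:53497341-53616970, minus strand) was at 69.5, 76.8 and 81.6 CPM in vehicle, at 160.0, 163 and 169 CPM with high-dose Scutellariae Radix and at 149.8, 149 and 141 CPM with high-dose dried ginger. GCLM (chr1:93885205-93909456, minus strand) was at 63.1, 62.8 and 67.0 CPM in vehicle, at 161, 159 and 159 CPM with Scutellariae Radix and at 118, 119 and 121 CPM with dried ginger. Both subunits were thus above every vehicle library in both groups. The GCLC rise was 1.12 ± 0.07 with Scutellariae Radix and 0.92 ± 0.07 with dried ginger, and the GCLM rise was 1.32 ± 0.13 and 0.87 ± 0.13 (edgeR, adjusted p at most 8.79e-06). With high-dose fresh ginger GCLC rose by 0.61 ± 0.07 and GCLM by 0.64 ± 0.13 (edgeR, adjusted p = 7.37e-07 and 0.00298). In 1 library, Pinelliae Tuber high-dose replicate 2, GCLM was at 34.5 CPM and GCLC at 56.6 CPM, while the other 2 libraries of that group had 80.5 and 83.2 CPM of GCLM and 93.1 and 91.8 CPM of GCLC. Dried ginger medium-dose replicate 3 was also low in GCLM, at 50.5 CPM beside 77.6 and 76.1.

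GSR is the reductase that returns oxidised glutathione to its reduced form with NADPH, and it lies on chromosome 8 (minus strand). Its levels moved little. It was at 71.0, 71.2 and 73.0 CPM in vehicle, at 92.7, 99.8 and 91.4 CPM with high-dose Scutellariae Radix and at 88.0, 90.1 and 91.4 CPM with high-dose dried ginger. These 2 groups were above vehicle with rises of 0.41 ± 0.05 and 0.30 ± 0.05 (edgeR, adjusted p = 2.51e-09 and 5.04e-06). In 12 of the 18 extract groups with more than 1 library, all libraries were below every vehicle library for GSR. All 18 groups were set against the same vehicle libraries, and the share of all genes so placed was not counted. Of the 12, only the low dose of Sayeok-tang passed edgeR's test, with 62.4, 65.5 and 64.9 CPM and a fall of -0.21 ± 0.05 (adjusted p = 0.00846). Across the 18 contrasts GSR was called in 3 by edgeR, in 9 by DESeq2 and in 13 at an unadjusted p under 0.05. The Sayeok-tang call was lost with no low-count filter (adjusted p = 0.184), and without vehicle replicate 1 or Sayeok-tang low-dose replicate 1, at log2 fold changes from -0.22 to -0.19 over the fits that leave out 1 library.

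GPX2, a selenoenzyme that reduces peroxides with glutathione, passed edgeR's test in none of the 18 contrasts with vehicle. Its libraries lay wholly below vehicle in 8 of the 18 groups, wholly above in 4 and overlapped it in 6. Here too the vehicle libraries were the same for every group, and the share of all genes so placed was not counted. It was at 686, 672 and 682 CPM in vehicle (chr14:64939152-64942905, minus strand), at 691, 692 and 702 CPM with high-dose Scutellariae Radix and at 692, 761 and 766 CPM with high-dose dried ginger. Its differences from vehicle in these groups were 0.04 (95% interval -0.13 to 0.21) and 0.10 (-0.08 to 0.27), and neither passed the test. The highest value of all, 958 CPM, was that of Pinelliae Tuber high-dose replicate 2, the library with 14.3% mitochondrial counts, while the other 2 libraries of its group had 681 and 712 CPM. Across the 18 contrasts with vehicle GPX2 was called in 0 by edgeR, in 1 by DESeq2 and in 4 at an unadjusted p under 0.05.

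TXNRD1 is the cytosolic thioredoxin reductase, a selenoenzyme that keeps thioredoxin reduced with NADPH. It was at 321, 350.3 and 376 CPM in vehicle (chr12:104215779-104350305, plus strand). It was at 692, 710.2 and 679 CPM with high-dose Scutellariae Radix and at 579.9, 609.6 and 584 CPM with high-dose dried ginger, all above vehicle. The rises were 1.00 ± 0.07 and 0.74 ± 0.07 (edgeR, adjusted p = 2.23e-14 and 3.9e-10). Fresh ginger (477, 474 and 501 CPM) and Sayeok-tang (485, 431 and 451 CPM) at the high dose were above vehicle too. They rose by 0.44 ± 0.07 and 0.35 ± 0.07 (edgeR, adjusted p = 0.000177 and 0.00318).

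SRXN1 encodes sulfiredoxin, which repairs over-oxidised peroxiredoxins. It was at 72.6, 70.1 and 72.2 CPM in vehicle (chr20:646615-653370, minus strand), at 108, 104 and 109.9 CPM with high-dose Scutellariae Radix and at 94.8, 102 and 97.4 CPM with high-dose dried ginger. Its rises of 0.60 ± 0.06 and 0.43 ± 0.06 (edgeR, adjusted p = 1.63e-10 and 8.3e-07) were below those of SLC7A11, GCLC, GCLM and TXNRD1. NQO1, a quinone reductase widely used as a readout of NRF2, was at 543, 511 and 522 CPM in vehicle (chr16:69706996-69726951, minus strand). It was at 838, 798 and 832 CPM with Scutellariae Radix and at 909.5, 865 and 897 CPM with dried ginger. Of the 7 genes that rose with both extracts, NQO1 alone had its highest group mean with dried ginger (890.4 ± 23.1 CPM, SD, n = 3) rather than Scutellariae Radix (822 ± 21.8 CPM). The libraries of these 2 groups did not overlap, and the difference between them was not tested.

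TXN, thioredoxin itself, was at 532, 448 and 426 CPM in vehicle (chr9:110243811-110256640, minus strand). Across the 18 contrasts with vehicle it was called in 0 by edgeR and 0 by DESeq2 and was in 5 below an unadjusted p of 0.05. Its libraries lay wholly below those of vehicle in 8 of the 18 groups, wholly above in 0 and overlapped them in 10. The share of all genes so placed was not counted. The 2 libraries with the largest ribosomal protein share of the replicated groups also stood out in TXN: Scutellariae Radix low-dose replicate 3 had 728 CPM beside 392 and 401 CPM in its group, and vehicle replicate 1 had the highest TXN of its group. TXN was at 525, 448 and 487 CPM with high-dose Scutellariae Radix and at 569, 527 and 543 CPM with high-dose dried ginger, so both groups overlapped vehicle. The differences from vehicle were 0.06 (95% interval -0.19 to 0.32) and 0.20 (-0.06 to 0.45).

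At the high dose against vehicle, the number of the 9 genes that rose ran from 7 to 0 over the 6 extracts. Vehicle carries sample codes of its own and each pair of extracts another set, so each such contrast is also one of code sets, and all 18 share the same 3 vehicle libraries. With Scutellariae Radix 7 of the 9 genes rose, against 11.4% of all 16763 genes tested that rose, and the median log2 fold change was 0.65 for the 9 and -0.02 for all. With dried ginger 7 rose (6.79% of all genes), with a median of 0.74. In both cases these were SLC7A11, GCLC, GCLM, GSR, TXNRD1, SRXN1 and NQO1. With fresh ginger 5 rose (2.99%), namely GCLC, GCLM, SLC7A11, TXNRD1 and NQO1, the last with 0.32 ± 0.08 (edgeR, adjusted p = 0.0105), a call lost without vehicle replicate 2. With Sayeok-tang 3 rose (1.26%), namely GCLC by 0.39 ± 0.07, TXNRD1 and SLC7A11 by 0.41 ± 0.12 (edgeR, adjusted p = 0.00155, 0.00318 and 0.044). The SLC7A11 call was lost on leaving out any of its 6 libraries but vehicle replicate 3, at 0.37 to 0.46, and with the replicate number as a block (adjusted p = 0.0507). Without the 3 libraries that stand apart the count was 8 for dried ginger, with TXN, 6 for fresh ginger, with SRXN1, and 6 for Sayeok-tang, and it stayed at 7 for Scutellariae Radix. The share of all genes that rose was larger in that fit too: 12.1% for dried ginger, 8.46% for fresh ginger, 4.82% for Sayeok-tang and 16.3% for Scutellariae Radix.

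The other 2 extracts had 0 of the 9 genes called at the high dose by edgeR. For Bojungikgi-tang (0.626% of all genes called in either direction) 2 genes were below an unadjusted p of 0.05, and DESeq2 called 1. Its largest difference was that of GCLC, at 97.5 and 94.0 CPM, above vehicle, with 0.30 ± 0.08 (adjusted p = 0.0791). Without vehicle replicate 3 the count was 1, and without the 3 libraries that stand apart it was 3 (1.62% of all genes higher and 0.845% lower). For Pinelliae Tuber (5.12% of all genes called) 3 genes were below an unadjusted p of 0.05, and DESeq2 called 2. Leaving out its replicate 2, 4 genes rose: SLC7A11 by 0.38, GCLM by 0.32, GCLC by 0.26 and TXNRD1 by 0.22 (edgeR, adjusted p = 0.00509, 0.0254, 0.00338 and 0.0111). Without replicate 1 the count was 1 and without replicate 3 it was 2. For either extract, the share of all genes called was not counted in the fits that leave out 1 library. Without all 3 libraries that stand apart the count for Pinelliae Tuber was 5 (5.89% of all genes higher and 3.38% lower).

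**Figure D2:**
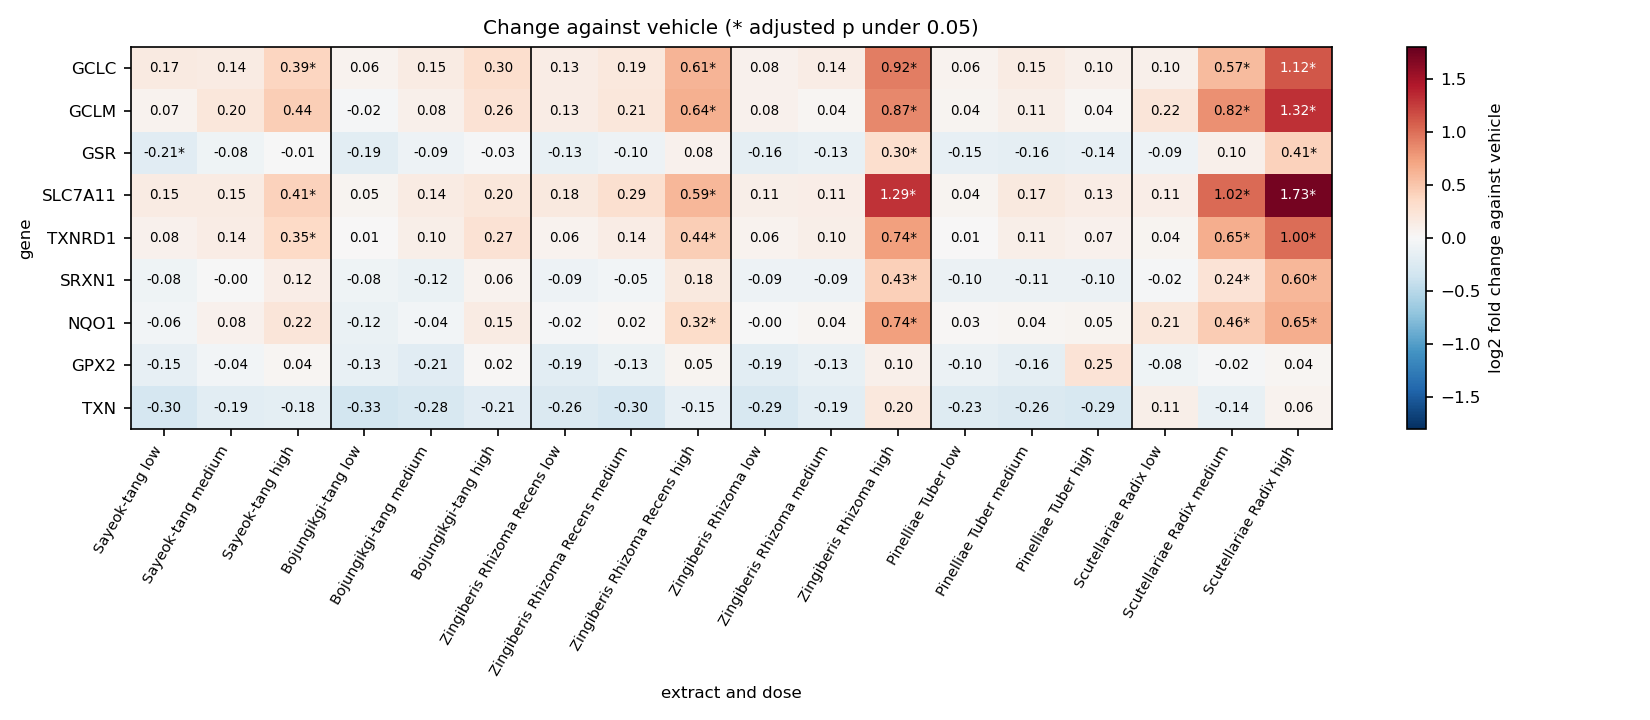
Log2 fold change against vehicle of each of the 9 genes (rows) for the 3 doses of 6 extracts (columns), red for higher and blue for lower, with an asterisk at an adjusted p under 0.05. The Scutellariae Radix and dried ginger high-dose columns hold the strongest red, up to 1.73 and 1.29 for SLC7A11.

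At the medium dose Scutellariae Radix was the only extract with a gene called against vehicle: 6 of the 9 rose (4.9% of all genes). SLC7A11, at 284, 296 and 298 CPM, rose by 1.02 ± 0.12, GCLM by 0.82 ± 0.13, TXNRD1 by 0.65 ± 0.07, GCLC by 0.57 ± 0.07, NQO1 by 0.46 ± 0.08 and SRXN1 by 0.24 ± 0.06 (edgeR, adjusted p at most 0.00605). The SRXN1 call was lost with no low-count filter (adjusted p = 0.0509). At the low dose Sayeok-tang had 1 call, the fall of GSR given above (1.72% of all genes fell). In the other 10 contrasts of a medium or low dose with vehicle edgeR called 0 of the 9 genes, with 0 to 4 at an unadjusted p under 0.05 and 0 or 1 by DESeq2. The share of all genes called in either direction was 0.793% for Sayeok-tang medium, 1.49% and 0.424% for Bojungikgi-tang medium and low, 2.16% and 3.1% for fresh ginger, 1.06% and 1.99% for dried ginger, 2.11% and 0.549% for Pinelliae Tuber and 0.382% for Scutellariae Radix low. Without Scutellariae Radix low-dose replicate 1 or replicate 3 that last contrast had 1 call.

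High against low dose of the same extract compares libraries of 1 code set, with the spread estimated over all 54 libraries of the fit. With dried ginger 8 of the 9 genes rose, against 2.3% of all genes. SLC7A11 went from 157, 161 and 161 CPM at the low dose to 359, 368 and 345 CPM, a rise of 1.19 ± 0.12 (edgeR, adjusted p = 6.31e-10). GCLC rose by 0.85 ± 0.07, GCLM by 0.79 ± 0.13, NQO1 by 0.74 ± 0.08, TXNRD1 by 0.68 ± 0.07, SRXN1 by 0.52 ± 0.06 and GSR by 0.46 ± 0.05. TXN went from 372, 430.0 and 389 CPM to 569, 527 and 543 CPM without overlap, a rise of 0.49 ± 0.13 (adjusted p = 0.0188) that was lost on leaving out any of 4 libraries (replicates 1 and 3 of either dose), at 0.44 to 0.55. GPX2 was higher by 0.29 ± 0.09 with an adjusted p of 0.0507 by edgeR, just outside the threshold. It was called by DESeq2 (adjusted p = 0.0305), with no low-count filter (0.0173), in the fit of only these 6 libraries (5.55e-05) and without the 3 libraries that stand apart (2.01e-06), so that in these fits all 9 genes rose. Without the 3 libraries that stand apart 5.6% of all genes rose, and for the other fits just named that share was not counted.

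Scutellariae Radix had 7 of the 9 genes higher at the high than at the low dose, against 10.7% of all genes. SLC7A11 was at 176, 169 and 126 CPM at the low dose, so its rise to 467 to 476 CPM was 1.61 ± 0.12. GCLM rose by 1.11 ± 0.13, GCLC by 1.02 ± 0.07, TXNRD1 by 0.96 ± 0.07, SRXN1 by 0.61 ± 0.06, GSR by 0.50 ± 0.05 and NQO1 by 0.45 ± 0.08 (edgeR, adjusted p at most 3.24e-05). The NQO1 call was lost in the fit of only these 6 libraries (adjusted p = 0.193). In the low-dose replicate 3 NQO1 was at 707 CPM, beside 554 and 566 CPM, and without that library its rise was 0.60. TXN changed sides with the same library: it differed by -0.05 ± 0.13 with all libraries and rose by 0.34 without it (edgeR, adjusted p = 0.00439). GPX2 differed by 0.12 (95% interval -0.06 to 0.29) with all libraries, and by 0.18 without the 3 that stand apart, where it was called (edgeR, adjusted p = 0.0044) and all 9 genes rose (10.3% of all genes).

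Between high and low dose of fresh ginger 5 genes rose (0.185% of all genes): GCLC by 0.48 ± 0.07, TXNRD1 by 0.38 ± 0.07, NQO1 by 0.35 ± 0.08, SRXN1 by 0.27 ± 0.06 and GSR by 0.21 ± 0.05 (edgeR, adjusted p from 0.000155 to 0.0214). Leaving out any 1 of the 6 fresh ginger libraries left 2 or 3 of these calls: those of NQO1 and SRXN1 were lost without any of the 6, and that of GSR without any of 4. Without the 3 libraries that stand apart 8 genes were called, where 1.11% of all genes rose and 1.47% fell. With Sayeok-tang 1 gene, GSR, rose by 0.20 ± 0.05 (adjusted p = 0.0328, 0.0954% of all genes), and the call was lost without any of 5 of the 6 libraries, at 0.17 to 0.22. In the fit of only its 6 libraries, and without the 3 that stand apart, 8 genes were called for Sayeok-tang. In the latter fit 0.743% of all genes rose and 1.42% fell, and in the former the share of all genes was not counted.

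With Bojungikgi-tang edgeR called 0 genes (0.0656% of all genes called in either direction), with 4 at an unadjusted p under 0.05 and 0 by DESeq2. The fit of its 4 libraries alone called 6, and the share of all genes called in it was not counted. The fit without the 3 libraries that stand apart called 3 (0.144% of all genes higher and 0.102% lower). With Pinelliae Tuber 1 gene, GPX2, rose by 0.35 ± 0.09 (edgeR, adjusted p = 0.0337, 1.16% of all genes). Without the high-dose replicate 2 its difference was 0.10 (adjusted p = 0.998), and the call was also lost without any 1 of the low-dose libraries, with the code as a block (adjusted p = 0.0617) and in the fit of only these 6 libraries (adjusted p = 0.833). Leaving out the 3 libraries that stand apart, the 2 genes called were SLC7A11 and TXNRD1 (0.264% of all genes higher and 0.515% lower).

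**Figure D3:**
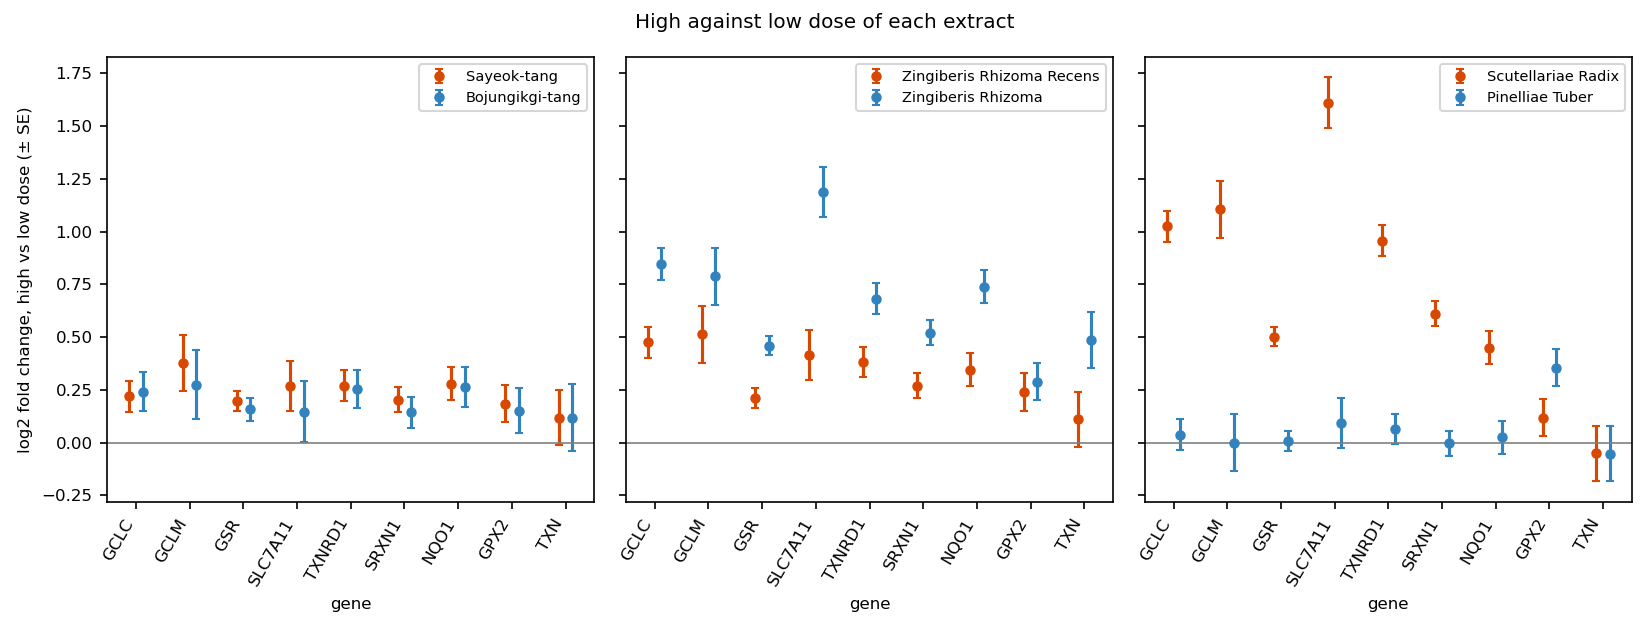
Log2 fold change of high against low dose (points, with bars of ± 1 SE) for each of the 9 genes, in 3 panels with the 2 extracts that share a code set. Scutellariae Radix and dried ginger lie above their partners for SLC7A11, GCLC, GCLM and TXNRD1, while GPX2 lies between 0.12 and 0.35 for all 6 extracts.

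Between medium and low dose Scutellariae Radix was again the only extract with calls: 6 of the 9 genes rose (2.16% of all genes). SLC7A11 rose by 0.90 ± 0.12, TXNRD1 by 0.61 ± 0.07, GCLM by 0.60 ± 0.13, GCLC by 0.47 ± 0.07, SRXN1 by 0.26 ± 0.06 and GSR by 0.19 ± 0.05 (edgeR, adjusted p at most 0.00858). None of the 6 was called in the fit of only these 6 libraries (adjusted p from 0.149 to 0.78), at nearly the same log2 fold changes. The calls of GSR and SRXN1 were lost without the medium-dose replicate 1 and replicate 2, and that of GSR with no low-count filter (adjusted p = 0.19). The count was 7, NQO1 being the addition, without the 3 libraries that stand apart, where the share of all genes was not counted. For the other 5 extracts edgeR called 0 of the 9 genes, with 0 or 1 at an unadjusted p under 0.05 and 0 by DESeq2. The share of all genes called was 0% for 4 of them and 0.0358% for Pinelliae Tuber.

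Fresh and dried ginger, 2 preparations of the same rhizome, were compared at their high dose of 500 µg/mL. Of the 9 genes, 6 were lower with fresh than with dried ginger, against 1.63% of all genes. SLC7A11 was lower by -0.70 ± 0.12, NQO1 by -0.41 ± 0.08, GCLC by -0.32 ± 0.07, TXNRD1 by -0.30 ± 0.07, SRXN1 by -0.25 ± 0.06 and GSR by -0.22 ± 0.05 (edgeR, adjusted p from 0.000101 to 0.0132). The calls of GCLC, TXNRD1 and SRXN1 were each lost on leaving out 1 library of the pair: replicate 1 or 3 of fresh ginger for GCLC, replicate 1 or 2 of fresh or 2 of dried ginger for TXNRD1 and replicate 2 of either for SRXN1. With no low-count filter the calls of GSR (adjusted p = 0.324) and SRXN1 (0.157) were lost, and without the 3 libraries that stand apart 7 genes were called, TXN being the addition. GCLM (-0.23, 95% interval -0.49 to 0.03), GPX2 (-0.05, -0.22 to 0.12) and TXN (-0.35, -0.60 to -0.09, adjusted p = 0.237) did not pass the test. The difference between the extracts in their change from low to high dose passed for SLC7A11 alone, at -0.77 ± 0.17 (edgeR, adjusted p = 0.0101), against 0.501% of all genes lower in that test. This count was 2 without the low-dose replicate 1 of fresh ginger and 7 both without the 3 libraries that stand apart and in the fit of only the gingers' libraries. For both contrasts between the gingers, the share of all genes was counted only in the fit of all 54 libraries.

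Scutellariae Radix and Pinelliae Tuber at 500 µg/mL differed in 8 of the 9 genes, all higher with Scutellariae Radix, against 9.9% of all genes. The differences were 1.59 ± 0.12 for SLC7A11, 1.28 ± 0.13 for GCLM, 1.02 ± 0.07 for GCLC, 0.93 ± 0.07 for TXNRD1, 0.70 ± 0.06 for SRXN1, 0.60 ± 0.08 for NQO1, 0.55 ± 0.05 for GSR and 0.35 ± 0.13 for TXN. The fit of only the 6 libraries called 5 and lost GCLM, NQO1 and TXN (adjusted p = 0.0697, 0.0758 and 0.141). The TXN call (adjusted p = 0.0481) was also lost without any of 4 libraries, at 0.30 to 0.41. The change from low to high dose was larger with Scutellariae Radix for 7 genes (4.24% of all genes), 2 of which were called in the fit of only the 12 libraries of these doses, and 8 were called without the 3 libraries that stand apart. For both contrasts between these extracts, the share of all genes was counted only in the fit of all 54 libraries. Sayeok-tang and Bojungikgi-tang at 500 µg/mL did not differ in any of the 9 genes by edgeR (0.00597% of all genes called), with 0 at an unadjusted p under 0.05 and 0 by DESeq2. Their differences ran from 0.02 to 0.22, and the interval for SLC7A11 was -0.04 to 0.48. Their dose changes did not differ either, with 0 genes called among the 9 and 0% of all genes, 0 at an unadjusted p under 0.05 and 0 by DESeq2.

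Coptidis Rhizoma and Zizyphi Fructus had 1 library a dose, so no dose was tested and their values have no replicate check. The search for libraries that stand apart left them out. The low-dose Coptidis Rhizoma library had 15.2% mitochondrial counts, 20.8 median absolute deviations from the median of the replicated groups. Its high-dose library had 3.44% (9.98 deviations), with a ribosomal protein share of 6.69% (9.62 deviations). The part of these shares in the values was not tested. With Coptidis Rhizoma SLC7A11 was at 187, 346 and 1035 CPM at 12.8, 64 and 320 µg/mL, the last 7.22 times the vehicle mean. NQO1 was at 537, 754 and 1683 CPM and TXNRD1 at 360.2, 440.1 and 1200.4 CPM at these doses. GCLC was at 84.5, 95.0 and 270.0 CPM, GCLM at 66.9, 65.9 and 183 CPM and SRXN1 at 67.3, 72.4 and 165 CPM. All 6 of these genes were above the vehicle range at the high dose. SLC7A11, NQO1, TXNRD1 and GCLC were above it at the medium dose too, and SLC7A11 and GCLC at the low dose. SRXN1 was below the vehicle range at the low dose. GSR was at 64.9, 69.7 and 79.1 CPM and GPX2 at 608, 589 and 874 CPM. Both were below the vehicle range at the low and medium doses and above it at the high dose. TXN, at 332, 322 and 513 CPM, was below the range at the low and medium doses and within it at the high dose. The share of all genes outside the vehicle range was not counted. Taken as 1 group of 3 doses against vehicle, the extract had 0 of the 9 genes called by edgeR (0.0265% of 15114 genes), with 2 at an unadjusted p under 0.05 and 0 by DESeq2, and SLC7A11 differed by 1.81 ± 0.54. That spread includes the spread between doses.

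With Zizyphi Fructus GCLC and GCLM were above the vehicle range at all 3 doses, and GSR, SRXN1 and TXN were below it at all 3. The share of all genes outside that range was not counted. Of the 18 replicated extract groups, 12 lay wholly above vehicle for GCLC and 12 for GCLM. Wholly below it lay 12 for GSR, 3 for SRXN1 and 8 for TXN. SLC7A11 was at 156, 152 and 162 CPM, GCLC at 85.3, 83.8 and 82.2 CPM and NQO1 at 525, 531 and 536 CPM at 20, 100 and 500 µg/mL. TXN was at 366, 377 and 342 CPM, and its fall of -0.42 ± 0.09 with the doses as 1 group was the 1 call among the 9 genes (edgeR, adjusted p = 0.0437, 1.55% of 15318 genes fell). The call was lost without vehicle replicate 2 or any of the 3 Zizyphi Fructus libraries, at -0.49 to -0.30, and the count was 3 without vehicle replicate 1 and 2 without vehicle replicate 3.

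**Figure D4:**
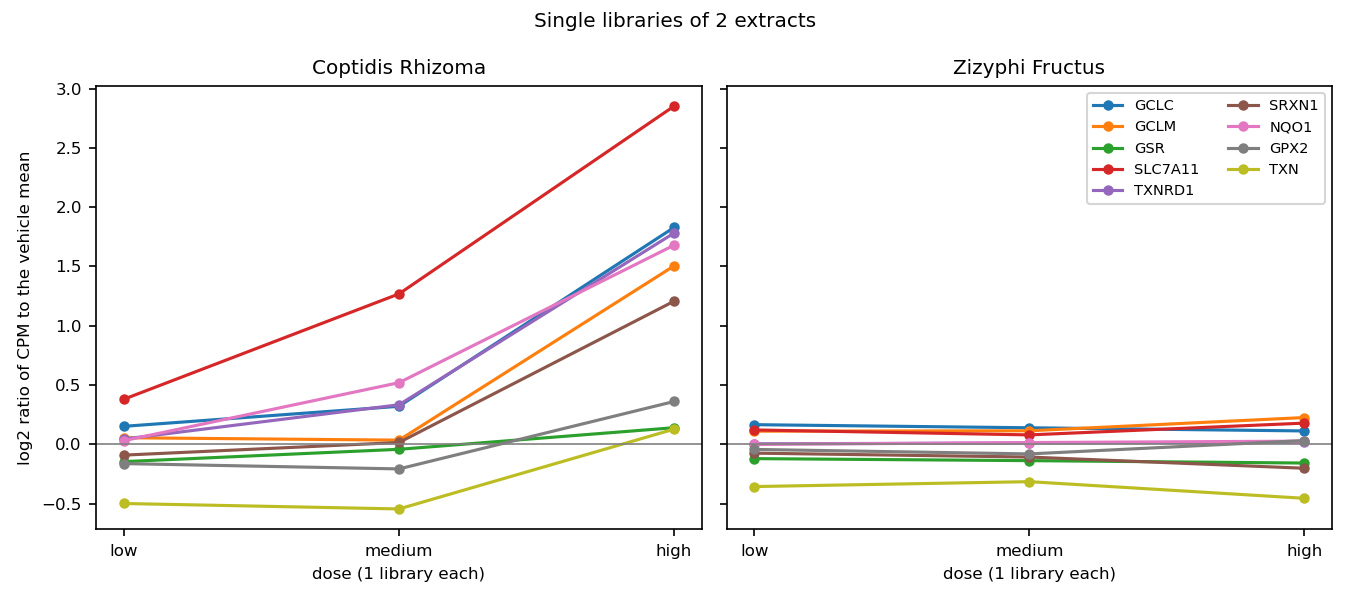
Log2 ratio of CPM to the vehicle mean for each of the 9 genes at the low, medium and high dose of Coptidis Rhizoma (left) and Zizyphi Fructus (right), 1 library a point. SLC7A11 reached 2.85 and GCLC 1.83 with Coptidis Rhizoma at 320 µg/mL, and no gene of Zizyphi Fructus went beyond 0.23 upwards or -0.45 downwards.

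The same contrasts of high with low dose were read for 5 lists of other genes of the pathway, and each gene said to rise or fall passed edgeR's test at an adjusted p under 0.05. Of 9 regulators of NRF2, 6 rose and 0 fell with Scutellariae Radix, where 10.7% of all genes rose and 11.7% fell, and 4 rose and 0 fell with dried ginger, where 2.3% rose and 2.04% fell. SQSTM1, an autophagy receptor that binds KEAP1, rose by 0.97 ± 0.07 with dried ginger and 0.48 ± 0.07 with Scutellariae Radix. The small MAF genes MAFG and MAFF rose with both, MAFG by 0.35 ± 0.05 and 0.41 ± 0.05 and MAFF by 0.34 ± 0.09 and 0.44 ± 0.09. NFE2L1, a relative of NRF2, rose with Scutellariae Radix (0.30 ± 0.08) and was at 0.00 ± 0.08 with dried ginger. Its difference with Scutellariae Radix was 0.12 without the 3 libraries that stand apart (edgeR, adjusted p = 0.0502), where the counts were still 6 and 4 (10.3% and 5.6% of all genes rose). The median over the 9 regulators was 0.30 with Scutellariae Radix and 0.13 with dried ginger, beside -0.02 and 0.00 over all genes.

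Of 16 other NRF2 targets tested, 16 rose with dried ginger (2.3% of all genes) and 15 with Scutellariae Radix (10.7%). The count was 7 with fresh ginger (0.185%), 6 with Sayeok-tang (0.0954%), 3 with Pinelliae Tuber (1.16%) and 2 with Bojungikgi-tang (0.0477%), and 0 fell with any of these 6 extracts. Leaving out the 3 libraries that stand apart, 12 rose with fresh ginger (1.11% of all genes in that fit), 8 with Sayeok-tang (0.743%), 2 with Pinelliae Tuber (0.264%) and 16 with Scutellariae Radix (10.3%). The heme oxygenase HMOX1 rose by 1.35 ± 0.10 with Scutellariae Radix and 1.02 ± 0.10 with dried ginger. Of the aldo-keto reductases, AKR1C2 rose by 3.17 ± 0.10 with dried ginger and 1.26 ± 0.10 with Scutellariae Radix, AKR1C1 by 2.66 ± 0.09 and 1.31 ± 0.09 and AKR1B10 by 1.92 ± 0.09 and 1.33 ± 0.09. The difference between these 2 extracts was not tested. AKR1C1 and AKR1C2 are near-identical copies, so reads may be split between them in error. Of 9 genes of NADPH supply, 5 rose with each of these 2 extracts. Without the 3 libraries 6 rose with each, where 5.6% of all genes rose with dried ginger and 10.3% with Scutellariae Radix. ME1, malic enzyme, rose by 0.57 ± 0.09 with dried ginger and 0.71 ± 0.09 with Scutellariae Radix. PGD rose by 0.44 ± 0.05 with each. IDH1 fell by -0.26 ± 0.07 with Scutellariae Radix and by -0.41 ± 0.07 with Pinelliae Tuber, where 0.626% of all genes fell, and by -0.25 there without the 3 libraries that stand apart.

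The counts for the other glutathione and thioredoxin genes turned on the libraries included. Of 24 genes of glutathione synthesis, transport and use, 2 rose and 9 fell with Scutellariae Radix between high and low dose (median log2 fold change -0.18), where 10.7% of all genes rose and 11.7% fell. Without the 3 libraries that stand apart, 1 of which is in that low-dose group, 6 rose and 3 fell (median 0.00, with 10.3% of all genes higher and 10.1% lower). Against vehicle 6 rose and 6 fell (median -0.08, with 11.4% and 12.1% of all genes). With dried ginger 4 rose and 0 fell between high and low dose (median 0.01), where 2.3% and 2.04% of all genes did. SLC3A2, the heavy chain that pairs with SLC7A11, rose by 0.57 ± 0.08 and 0.54 ± 0.08 with these extracts, and CHAC1, an enzyme that breaks glutathione down, by 1.51 ± 0.16 and 1.57 ± 0.16. GPX1, the common cytosolic peroxidase, fell by -0.70 ± 0.15 with Scutellariae Radix and by -0.32 without the 3 libraries, and GPX3, the secreted form, rose by 0.62 ± 0.09 with dried ginger. Of 17 thioredoxin and peroxiredoxin partners, 1 rose and 7 fell with Scutellariae Radix and 1 rose and 1 fell with dried ginger. Without the 3 libraries 4 rose and 2 fell with Scutellariae Radix and 3 rose and 1 fell with dried ginger (5.6% and 5.15% of all genes there). Against vehicle 2 rose and 3 fell with Scutellariae Radix. TXNIP, the inhibitor of thioredoxin, fell by -0.84 ± 0.05 and -0.50 ± 0.05, and SESN2, a sestrin, rose by 0.50 ± 0.10 and 0.37 ± 0.10. The mitochondrial reductase TXNRD2 fell by -0.35 ± 0.07 with Scutellariae Radix, while its cytosolic relative TXNRD1 rose, and MSRB2 fell by -0.48 ± 0.11, a call lost without the 3 libraries (-0.24, edgeR, adjusted p = 0.0634). These list genes were taken from the 4 of each list with the smallest p in any contrast of high with low dose.

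**Figure D5:**
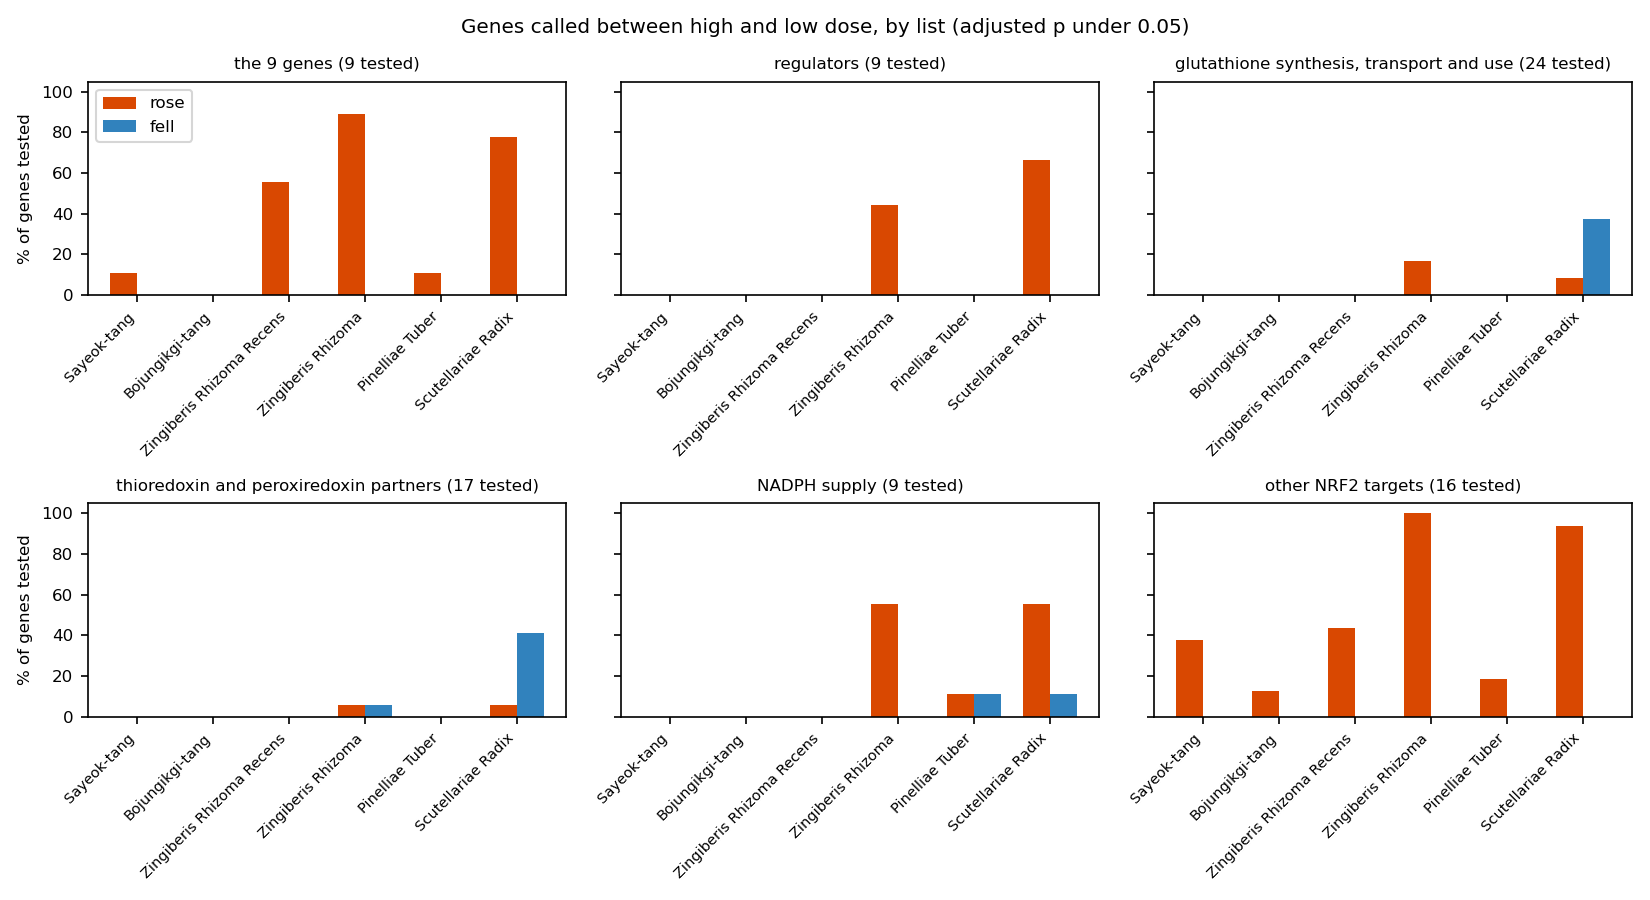
Percent of the tested genes of the 9 and of 5 pathway lists that rose (orange) or fell (blue) between low and high dose of each of 6 extracts, at an adjusted p under 0.05. The other NRF2 targets rose in 16 of 16 with dried ginger and 15 of 16 with Scutellariae Radix, while the lists of glutathione use and of thioredoxin partners hold 9 and 7 falls with Scutellariae Radix (3 and 2 without the 3 libraries that stand apart).

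Over the 19 group means, 7 of the 9 genes followed each other closely, with Pearson correlations of 0.946 (SLC7A11) to 0.985 (SRXN1) between a gene and the mean of the other 8. GPX2 (0.513) and TXN (0.73) followed less. These correlations are a description over 19 points, which share code sets in pairs of extracts, and the high doses of Scutellariae Radix and dried ginger supply most of the range. Outside the 9, the genes with the most similar pattern among 11030 compared were TRIM16L, itself on the list of other NRF2 targets (0.974), AKR1B10 (0.973), TRIM16 (0.961), IFRD1 (0.959) and ALDH3A1 (0.959). By rank correlation 2 of these, AKR1B10 and ALDH3A1, stayed among the first 5. TRIM16 and TRIM16L are near-identical copies whose reads may be mixed.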

How the data were processed

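HT29 RNA was measured by paired 100-base sequencing. Per the labels' protocols, 1 µg of total RNA (RIN above 7) went into MGIEasy RNA Directional libraries. The authors deposited expected counts per Ensembl gene, and the submitters' processing notes name RSEM 1.3.3, STAR 2.7.3a, Trim Galore 0.6.5, FastQC 0.11.9 and hg38. The sources used here give neither annotation release nor strand setting. Of the deposited values 90.0% to 92.1% a library were whole, and all were rounded. The table holds 210 columns of other samples, not used here. The labels give vehicle as 0.1% DMSO and the series text as 2%. The ethanol extracts were made with 70% ethanol. Symbols and positions came from GENCODE 29 (57055 of the IDs).

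The 9 genes, the lists and the comparisons were chosen with earlier results of these data known. All 19 replicated groups (54 libraries) entered 1 fit in edgeR 4.0.16 (R 4.3.3), with filterByExpr (16763 genes, all 9 members among them), TMM, estimateDisp without tagwise values, robust glmQLFit, glmQLFTest and Benjamini-Hochberg at 0.05 over all genes tested, with 35 residual degrees of freedom and a common biological coefficient of variation of 0.0855. The SE is the size of the log2 fold change over the root of F. The 3 single libraries of Coptidis Rhizoma, and those of Zizyphi Fructus, were taken as 1 group beside vehicle. CPM are per total count. The scripts were tested on simulated data. Libraries had 18016457 to 35819900 counts, and a gene at 1 CPM had at least 18 of them.

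Named genes are the 9, the 4 of each list with the smallest p in a contrast of high with low dose, and the 5 most like the mean of the 9 by Pearson correlation over group means, with an average log2 CPM above 2. A gene of the lists that meets this rule is not reported here. Named after their values were seen are the markers outside their stated range. As alternatives, each library was left out in turn, the replicate number or the code was taken as a block, the low-count filter was dropped, the fit was limited to the libraries compared, and DESeq2 1.42.0 or its size factors were used. Rank correlation and the forward strand were tried for the pattern and the motif. Leaving out the 3 libraries that stand apart was chosen after seeing the data. Where a count from an alternative has no share of all genes beside it, that share was not counted.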

Additional observations from a re-analysis of the deposited data

Results flagged for a closer look

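In 8 results the change from low to high dose differed between the 2 extracts of a code set by the test of the difference itself (edgeR's quasi-likelihood test, Benjamini-Hochberg over all genes). Between fresh and dried ginger it was SLC7A11, whose rise was smaller with fresh ginger by -0.77 ± 0.17 (log2, ± SE, adjusted p = 0.0101). It rose by 1.19 with dried ginger and differed by 0.42 with fresh ginger, which did not pass the test (adjusted p = 0.125).

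Between Scutellariae Radix and Pinelliae Tuber 7 genes differed, all with the larger rise in Scutellariae Radix. In cystine import and glutathione synthesis the differences were 1.52 for SLC7A11, 1.11 for GCLM and 0.99 for GCLC. In the reductases they were 0.89 for TXNRD1, 0.49 for GSR and 0.42 for NQO1 (adjusted p = 0.00961), and for SRXN1 it was 0.61. These contrasts contain Pinelliae Tuber high-dose replicate 2 (14.3% mitochondrial counts) and Scutellariae Radix low-dose replicate 3 (9.35% ribosomal protein counts). Their part in the differences was not tested beyond leaving libraries out: 8 genes were called without the 3 libraries that stand apart, 7 or 8 with any 1 library left out, and 2 in the fit of only the 12 libraries of these doses. That last fit lost the calls of GCLM, GSR, TXNRD1, SRXN1 and NQO1 (adjusted p from 0.0556 to 0.571). The share of all genes called was not counted in any of these alternative fits. GPX2 (-0.24, 95% interval -0.48 to 0.01) and TXN (0.00, -0.36 to 0.36) did not pass the test.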

How the results depend on the processing

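Of the 80 calls among 342 tests of a gene in a comparison, 64 were kept whichever library was left out and 50 under every alternative run. The values that reversed were both those of TXN between high and low dose of Scutellariae Radix: -0.05 became 0.34 without the 3 libraries that stand apart and 0.34 without the low-dose replicate 3, within a range of -0.22 to 0.34 over the fits that leave out 1 library. Depth does not limit these genes, which had 891 counts or more in every library. Bojungikgi-tang had n = 2 and 2 extracts n = 1 a dose.

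Counts of the 9 genes called moved by over 1.5 times in these cases, whose cause was not tested. With no low-count filter, counts against vehicle went from 0 to 2 for fresh ginger medium and Pinelliae Tuber high and from 0 to 1 for the low doses of Bojungikgi-tang and both gingers and for Pinelliae Tuber medium, while 8 calls were lost, 5 of GSR and 3 of SRXN1. Without the 3 libraries that stand apart, the counts against vehicle were 6 for Sayeok-tang high (3 with all), 5 for Pinelliae Tuber high, 3 for Bojungikgi-tang high, 2 for fresh ginger medium and dried ginger low, and 1 for Bojungikgi-tang medium and low, fresh ginger low and Pinelliae Tuber medium, all of which were 0 with all libraries except the first. Between high and low dose they were 8 for Sayeok-tang (1 with all), 8 for fresh ginger (5), 3 for Bojungikgi-tang (0) and 2 for Pinelliae Tuber (1), and for the difference between the gingers 7 (1). For the contrasts of a high dose with vehicle or the low dose, the shares of all genes in that fit are given above. For its other contrasts, and for the other alternatives in this paragraph, the share of all genes was not counted. With only the libraries compared, the counts between high and low dose were 8 for Sayeok-tang, 6 for Bojungikgi-tang and 0 for Pinelliae Tuber, and 0 for Scutellariae Radix medium against low (6). That setting gave 5 for Scutellariae Radix against Pinelliae Tuber (8), 2 for the difference of their dose changes (7) and 7 for that of the gingers (1). DESeq2 gave 2 for Pinelliae Tuber high and 1 for Pinelliae Tuber medium and low, for Bojungikgi-tang high and low and for the low doses of both gingers against vehicle, 2 for Sayeok-tang high against low, 4 for the difference between the gingers and 2 for Zizyphi Fructus.

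With each library left out, counts ranged from 2 to 3 for fresh ginger high against low (5 with all), 1 to 2 for the difference between the gingers, 0 to 4 for Pinelliae Tuber high against vehicle, 0 to 3 for Zizyphi Fructus, and 0 to 1 for Bojungikgi-tang high, Sayeok-tang low and Scutellariae Radix low against vehicle and for Sayeok-tang and Pinelliae Tuber high against low. The genes most like the 9 kept 2 of 5 under rank correlation, and the motif lay in 1 of 8 windows on the forward strand (4 on both).

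Replicate numbers did not pair the libraries: in 0 of 33 comparisons was every pair's correlation of deviations above 0.1 (range -0.339 to 0.201), and in 2 of 27 with 3 pairs did every library correlate best with its own number. With the replicate number as a block 1 call was lost, that of SLC7A11 for Sayeok-tang high against vehicle. With the code as a block, the count for Pinelliae Tuber high against low went from 1 to 0.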
